A study of Mus musculus with 2 samples.

Results

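The replication-dependent histone genes are the clustered genes for the core histones H2A, H2B, H3 and H4 and the linker histone H1. They were taken from the count tables by symbol, as all genes named H2ac, H2bc, H3c or H4c with a number and the linker genes H1f1 to H1f5. The rule found 67 of 27179 genes, with 5 genes for H1, 18 for H2A, 19 for H2B, 12 for H3 and 13 for H4. RNA was prepared from iBAT, the interscapular depot of brown fat, a tissue that burns fuel to make heat, of untreated C57BL/6N mice at 20 days of age that were described as male. The wild-type library and the library from Ucp1-knockout animals (Ucp1-KO) were each made from tissue pooled from 3 animals, so there was 1 library per genotype, no replicate and no test. Both libraries were directional and enriched for poly(A) RNA.

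Replication-dependent histones are made in S phase, when new DNA has to be packed into nucleosomes. Their mRNAs are the only known mRNAs of animals that as a rule lack a poly(A) tail. The transcript ends instead just after a short hairpin, the histone stem-loop, which is bound by the stem-loop binding protein Slbp and cut by a complex guided by the U7 small nuclear RNA. Some of these genes also make longer, poly(A)-tailed transcripts from a polyadenylation signal downstream of the stem-loop, above all in cells that have left the cell cycle. Poly(A) enrichment keeps the tailed form and loses most of the stem-loop form. A count per gene does not separate the forms, so how much of either was present cannot be told apart here.

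A histone stem-loop pattern was found within 200 bases after the stop codon in 65 of the 67 genes (mouse genome GRCm39, GENCODE release 39). The same search found it in 72 of 21757 protein-coding genes (0.331%), of which 7 were outside the group. The exceptions within the group were H2bc21, a major H2B gene of these libraries, and H2ac22. The stem-loops below are those of the most counted gene of each family with a stem-loop, followed by H4c9 and H3c3, which carry variant loops or stems. The 16 capitals mark the hairpin, and the flanks are part of the region that Slbp binds.
H1f2 (chr13:23923490-23923515, plus strand): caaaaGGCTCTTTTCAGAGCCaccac
H2ac25 (chr11:58845993-58846018, plus strand): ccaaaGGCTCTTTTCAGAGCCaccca
H2bc4 (chr13:23868625-23868650, plus strand): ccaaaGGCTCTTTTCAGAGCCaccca
H3c14 (chr3:96154638-96154663, plus strand): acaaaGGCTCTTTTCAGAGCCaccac
H4c8 (chr13:23715623-23715648, plus strand): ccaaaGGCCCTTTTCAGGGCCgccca
H4c9 (chr13:22225131-22225156, minus strand): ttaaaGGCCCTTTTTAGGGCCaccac
H3c3 (chr13:23929025-23929050, minus strand): aaaaaGGCTCTTTTAAGAGCCaccta
The hairpin of H1f2 was shared letter for letter by 42 of the 67 genes. The hairpin of H4c8 was found in 8 genes, which were all H4 genes, and that of H3c3 in 8 genes of the H2A, H2B and H3 families. H4c9 shared its hairpin with H4c14.

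The tables held 52950913 (wild-type) and 53216727 (Ucp1-KO) counts. In every pair of counts below the wild-type library comes first. The targeted gene, Ucp1, had 366473 and 37853 counts, with a log2 ratio of -2.98. Of the Y-linked genes, Ddx3y had 0 and 3446 counts, Uty 0 and 798, Kdm5d 0 and 570 and Eif2s3y 0 and 491, while Xist, which is expressed from an inactive X chromosome, had 32380 and 16478 counts. These values go against the description of both pools as male, and sex of the pooled animals and genotype cannot be told apart in the comparison below. The mitochondrially encoded genes took 22.4% and 36.7% of the counts. The brown adipocyte markers were detected in both libraries. The 12 skeletal muscle markers summed to 287877 and 33444 counts. Each of the 12 was lower in Ucp1-KO by 2-fold or more, against 9.55% of all genes. Scaling was by size factors from the median of ratios, and the log2 ratio is log2 of Ucp1-KO over wild-type on normalized counts after adding 0.5 to each. Intervals cover counting error only and were computed on read pairs, and genes with a mean normalized count of at least 10 were examined.

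Histone reads were a very small part of both libraries and were fewer in the Ucp1-KO library. The 67 genes together had 11655 and 5329 counts. Their share of a library was 0.0220% in wild-type (exact binomial, 95%, 0.0214% to 0.0226%) and 0.0100% in Ucp1-KO tissue (0.00964% to 0.0104%). On normalized counts the summed log2 ratio was -0.83 (-0.90 to -0.76). Fewer cells in cycle and less histone RNA per cell cannot be told apart in whole tissue.

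The counts sat in a handful of genes. H1f2 alone held 52.4% of the group's wild-type counts and 54.4% of its Ucp1-KO counts, and the 5 most counted genes held 87.0% and 89.4%. Without H1f2, the remaining genes summed to 5542 and 2430 counts, which gave a log2 ratio of -0.89 (-0.99 to -0.79). A count was recorded for 40 of the 67 genes in wild-type and for 33 in Ucp1-KO tissue, beside 17534 and 17171 of all 27179 genes. The size factors, 1.11 and 0.901, also differed, which bears on detection at low counts. Of the 67 genes, 22 were at 0 in both. A further 25 genes had a count but stayed below a mean normalized count of 10, with at most 18 and 6 counts. That left 20 genes to examine, of which 15 had at least 10 normalized counts in both libraries, 4 passed only through the wild-type library and 1 only through the Ucp1-KO library.

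Of the 20 genes examined, 10 were lower in Ucp1-KO by 2-fold or more, against 9.55% of all 15212 genes examined. None was at least 2-fold higher, against 7.42% of all genes. Scaling to total counts would have put 2262 of all genes at least 2-fold lower and 765 higher, in place of 1453 and 1128. The log2 ratio was below 0 for 18 of the 20, against 50.1% of all genes, and the counting interval lay wholly below 0 for 11, against 30.5%. It lay wholly above 0 for none of the 20, against 31.5%. The median log2 ratio was -1.02 over the 20 genes and -0.0016 over all genes. The 4 genes that passed only through the wild-type library, H1f4, H2bc3, H3c4 and H4c4, had to be lower in the Ucp1-KO library. H2ac19 passed only through the Ucp1-KO library and had to be higher there. Of the 15 genes with at least 10 in both libraries, 14 were below 0 and 7 were at least 2-fold lower. The shares of all genes under that stricter rule were not computed.

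**Figure D1:**
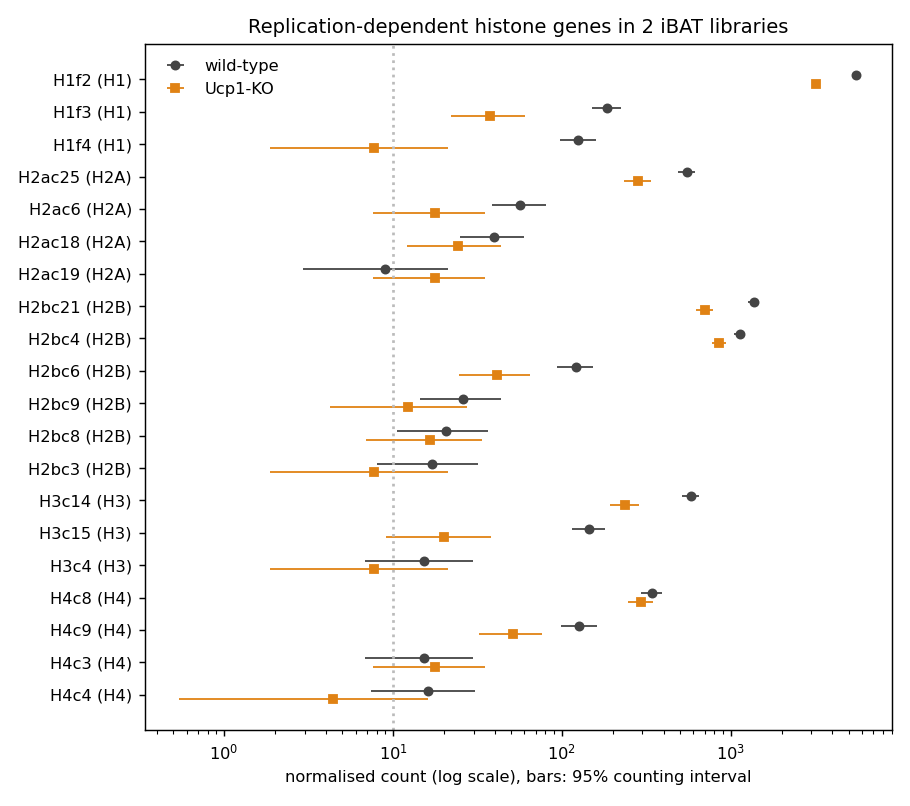
Normalized counts (log axis) of the 20 replication-dependent histone genes examined, in the wild-type library (circles) and the Ucp1-KO library (squares), with exact 95% Poisson intervals and a dotted line at 10. H1f2 lies far above the other genes in both libraries, and the wild-type value is the higher one for 18 of the 20 genes.

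Linker histone H1 binds the DNA between nucleosomes. H1f2 had 6113 and 2899 counts. The log2 ratio was -0.78 (-0.87 to -0.69), so the Ucp1-KO level was 58.4% of the wild-type level. H1f3 had 205 and 34 counts, which gave a log2 ratio of -2.28 (-3.13 to -1.54). H1f4 had 139 and 7 counts, with the lowest log2 ratio of the 20 genes examined at -3.93 (-6.10 to -2.51). It reached the mean of 10 only through the wild-type library and so had to be lower in Ucp1-KO. The intervals of H1f3 and H1f4 lay wholly below that of H1f2. The other linker genes stayed below a mean normalized count of 10, with 18 and 0 counts for H1f5 and 0 and 4 for H1f1. All 5 H1 genes summed to 6475 and 2944 counts, which gave a log2 ratio of -0.84 (-0.93 to -0.75).

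H2A and H2B form the dimers on the outside of the nucleosome core. H2ac25, which lies on chromosome 11 outside the major clusters, was the most counted H2A gene with 608 and 254 counts. Its log2 ratio was -0.96 (-1.27 to -0.66), and its annotated exons overlap those of Trim17 on the same strand. H2ac6 had 63 and 16 counts, which gave a log2 ratio of -1.65 (-3.01 to -0.53). H2ac18 had 44 and 22 counts at a log2 ratio of -0.69 (-1.89 to 0.41). H2ac19 was the gene with the highest log2 ratio, 0.94, from 10 and 16 counts, with an interval of -0.82 to 2.94 that spans 0. It reached the mean of 10 only through the Ucp1-KO library and so had to be higher there. H2ac18 and H2ac19 share their whole coding sequence, in windows of 100 bases, with other places in the genome. Of the 18 H2A genes, 10 were at 0 in both libraries, and the family summed to 749 and 315 counts, which gave a log2 ratio of -0.95 (-1.23 to -0.68).

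H2bc21 and H2bc4 held most of the H2B counts. H2bc21 had 1520 and 632 counts, at a log2 ratio of -0.97 (-1.16 to -0.78). H2bc4 had 1252 and 769 counts, and its log2 ratio of -0.40 (-0.59 to -0.22) was closer to 0 than that of H2bc21, with intervals that did not overlap. Of the 100-base windows of its coding sequence, 94.6% also occur elsewhere in the genome, against 0% for H2bc21. H2bc6 had 134 and 37 counts at a log2 ratio of -1.55 (-2.39 to -0.80). Its annotated exons overlap those of H1f4 on the same strand, so their counts are uncertain. H2bc8, with 23 and 15 counts, had a log2 ratio of -0.31 and an interval that spans 0 (-1.86 to 1.14). The 19 H2B genes summed to 2989 and 1480 counts, which gave a log2 ratio of -0.71 (-0.84 to -0.59).

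H3 and H4 make up the tetramer at the center of the nucleosome. H3c14 had 643 and 212 counts, which gave a log2 ratio of -1.30 (-1.63 to -0.98). Its neighbor H3c15 had 161 and 18 counts at -2.83 (-4.04 to -1.87). Both genes had all of their coding sequence, read in windows of 100 bases, at another place in the genome as well, so reads from the coding part cannot be assigned to one of them. H3c4 had 17 and 7 counts at a log2 ratio of -0.94 (-3.31 to 0.96). The 12 H3 genes summed to 851 and 243 counts and, with a log2 ratio of -1.51 (-1.81 to -1.21), had the lowest summed ratio of the 5 families. By the median of the genes examined, with 3 genes in each family, H1 was lower at -2.28 than H3 at -1.30, while H1f2 carried most of the H1 counts. These medians include H1f4 and H3c4, which passed only through the wild-type library and so had to be lower in Ucp1-KO. The order of the medians depends on the filter. Without a filter on low counts they were -2.28 for H1 and -2.44 for H3.

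H4c8 was the most counted H4 gene and, of the 7 histone genes with a mean normalized count of at least 100, the one whose interval spanned 0. It had 377 and 265 counts, and its log2 ratio was -0.21 (-0.54 to 0.12). H4c9, named here after its values were seen, had 141 and 46 counts at -1.31 (-2.06 to -0.62), an interval that did not overlap that of H4c8. H4c3 had 17 and 16 counts at 0.21 (-1.38 to 1.79), and H4c4 had 18 and 4 at -1.76 (-5.12 to 0.40). The 13 H4 genes summed to 591 and 347 counts, and the family's log2 ratio of -0.47 (-0.75 to -0.19) was the one nearest to 0.

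**Figure D2:**
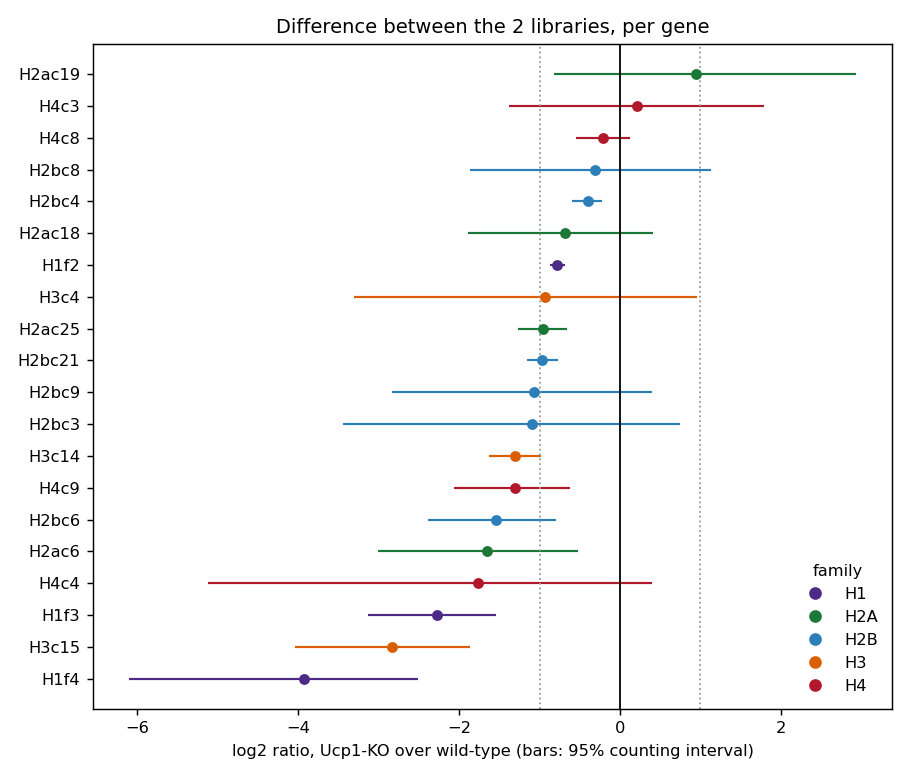
Log2 ratios of Ucp1-KO over wild-type for the 20 histone genes examined, ordered by size and colored by family, with 95% counting intervals and dotted lines at a 2-fold difference. H1f4, H3c15 and H1f3 lie lowest at -3.93, -2.83 and -2.28, and 11 of the 20 intervals lie wholly below 0. H1f4 reached the mean of 10 only through the wild-type library.

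Levels can be compared between genes only per length. Per kilobase of annotated exon (GENCODE), H1f2 stood at 3532 and 2062 normalized counts. H4c8 was next with 723 and 626, followed in wild-type by H2bc21 with 523 and 268, H2bc4 with 365 and 276, H3c14 with 318 and 129, and H2ac25 with 255 and 131. The annotated exons of H4c8 span 470 bases, against 2620 for H2bc21, which had more counts. The order below H1f2 depends on the annotation, since RefSeq gives H2ac25 a span of 508 bases where GENCODE gives 2146 bases, and H3c14 a span of 664 where GENCODE gives 1825.

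The 3′ end of a gene as annotated in GENCODE went with the level at which it was counted. The classes depend on that annotation, and the one used for counting is not given. RefSeq gives H1f2 a span of 725 bases where GENCODE exons cover 1560. For H2bc4 the RefSeq span is 8282 bases where GENCODE exons cover 3088. In 27 genes the annotation holds a coding transcript that runs more than 100 bases beyond the stem-loop, and in 21 of these an AATAAA or ATTAAA lies in that stretch. In the 38 other genes with a stem-loop the transcripts end near it, and only H4c8 has such a hexamer there. The 27 extended genes held 82.6% of the group's wild-type counts and 81.9% of its Ucp1-KO counts, with a median of 18 and 7 counts per gene, and 4 of the 27 were at 0 in both libraries. The 38 genes that end near the stem-loop held 4.37% and 6.29%, with a median of 0 counts in either library, and 17 of the 38 were at 0 in both. H4c8 supplied 377 of their 509 wild-type counts and 265 of their 335 Ucp1-KO counts. H2bc21, without a stem-loop pattern, held the rest. In GENCODE the extended genes have longer exons to collect reads, and that part of the difference was not tested.

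The extended genes summed to 9626 and 4362 counts, which gave a log2 ratio of -0.84 (-0.92 to -0.77). The genes that end near the stem-loop summed to 509 and 335, a log2 ratio of -0.30 (-0.59 to -0.02), most of it from H4c8, whose own interval spanned 0. The 10 genes that were lower by 2-fold or more were all extended ones, but only 3 of the genes that end near the stem-loop, H4c8, H2ac18 and H2ac19, had enough counts to be examined. None of the 3 had an interval wholly below 0, and their median log2 ratio was -0.21. H1f4, H2bc3 and H4c4, which are among the 10 lower genes, passed only through the wild-type library and had to be lower in Ucp1-KO. H2ac19 passed only through the Ucp1-KO library and had to be higher there. The filter thus set part of this contrast, and whether the classes differed was not tested.

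**Figure D3:**
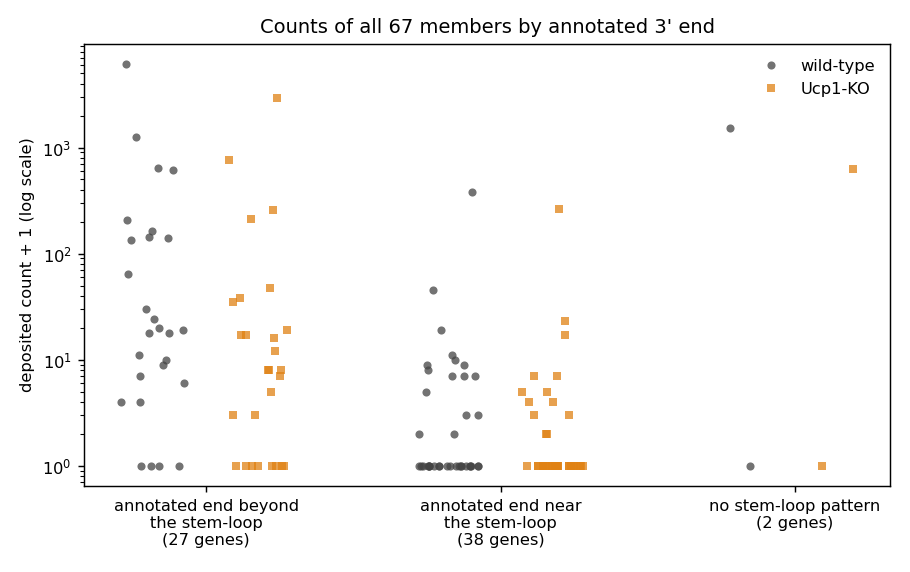
Deposited counts plus 1 (log axis) of all 67 replication-dependent histone genes in the wild-type (circles) and Ucp1-KO (squares) libraries, by where the annotated transcript ends relative to the stem-loop. Points are spread sideways at random for legibility, and most of the 38 genes that end near the stem-loop lie at or close to 0 counts in both libraries.

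Near-identical copies limit what a count for a single gene means. Of the 22 genes at 0 in both libraries, 16 had at least 50% of their 100-base coding windows at another place in the genome, and the median was 66.5%. Of the 45 genes with a count, 23 did, and the median was 51.6%. The 22 genes at 0 were H2ac1, H2ac4, H2ac10, H2ac11, H2ac12, H2ac13, H2ac15, H2ac22, H2ac23, H2ac24, H2bc11, H2bc13, H2bc14, H2bc18, H2bc22, H2bc24, H2bc27, H3c1, H3c10, H4c11, H4c17 and H4c18. A count of 0 allows up to 6 counts, or 0.113 CPM (counts scaled to equal library totals), and it does not show that such a gene is silent. The 28 genes with mostly unique coding sequence summed to 9017 and 3963 counts, which gave a log2 ratio of -0.89 (-0.96 to -0.81), and the 39 with mostly shared sequence to 2638 and 1366, at -0.65 (-0.79 to -0.52).

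By position, 53 of the genes lie on chromosome 13, which holds the major cluster, 10 lie on chromosome 3 and 4 elsewhere. Their summed log2 ratios were -0.75 (-0.83 to -0.68) for chromosome 13, -1.11 (-1.26 to -0.95) for chromosome 3 and -0.97 (-1.27 to -0.67) for the rest. Many H2A and H2B genes stand head to head and share a promoter. There were 15 head-to-head pairs with start sites within 1000 bases, and 13 of them joined an H2A with an H2B gene. In counts not scaled for length, the genes of a pair differed widely where either was well counted. H2bc21 had 1520 and 632 counts where its partner H2ac20 had 8 and 3, and H2ac25 had 608 and 254 where H2bc26 had 8 and 0. H2ac20 and H2bc26 end near the stem-loop and have 520 and 381 bases of annotated exon. H2bc21 has 2620 such bases and H2ac25 has 2146. The part of length and 3′ end in these gaps was not tested. H2ac6 and H2bc4 formed the one pair with both genes examined, with 63 and 16 counts for H2ac6 beside 1252 and 769 for H2bc4. Both genes of 4 pairs were at 0 in both libraries.

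Promoter sequence was read from the RefSeq table for 61 of the 67 genes, from 250 bases before to 50 bases after the start (build GRCm38.p6). The letters CCAAT, the recognition sequence of the factor NF-Y, were searched on both strands and were present in 52 of the 61 histone promoters (85.2%) and in 41.1% of all 27025. Every H1, H2A, H2B and H3 promoter of the table held them, but only 3 of 12 H4 promoters did. The letters TATAAA, which recruit the general transcription machinery, were found in 35 of 61 (57.4%) against 15.7% of all. The octamer ATTTGCAT, read by Oct1, was found in 14 of 61 (23.0%) against 1.97%, in 7 of 18 H2A and 7 of 16 H2B promoters and in none of the other families. The promoter of H2ac6, from the pair with H2bc4, is shown because it holds all of these letters. The capitals mark matches to any of these letters on either strand in the 250 bases before the start.
H2ac6 promoter (GRCm38.p6, chr13:23683960-23684209, minus strand): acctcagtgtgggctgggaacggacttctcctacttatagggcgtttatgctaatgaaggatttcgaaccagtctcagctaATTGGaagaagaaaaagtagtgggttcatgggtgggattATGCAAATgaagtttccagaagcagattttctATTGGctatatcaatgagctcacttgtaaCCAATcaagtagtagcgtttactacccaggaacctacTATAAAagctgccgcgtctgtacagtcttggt
A match gives letters in a window and does not show that a factor was bound there.

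Replication-independent histones are made mostly from ordinary poly(A)-tailed mRNAs throughout the cell cycle. Of the 11 examined, 2 were at least 2-fold lower in Ucp1-KO, against 9.55% of all genes, and 1 at least 2-fold higher, against 7.42%. The median log2 ratio of the 11 was -0.12. Their sum was 17386 and 9430 counts, at -0.58 (-0.63 to -0.53), beside -0.83 for the sum of the replication-dependent genes. The interval lay wholly below 0 for 4 of the 11, against 30.5% of all genes, and wholly above 0 for 2, against 31.5%. The most counted gene of the list in both libraries was H1f0. H1f0, the linker histone of resting and differentiated cells, had 8147 and 2532 counts at a log2 ratio of -1.39 (-1.48 to -1.29). H3f3b, with 21 and 8 counts, was at -1.05 (-3.21 to 0.68). H1f10 had 25 and 42 counts at 1.03 (-0.03 to 2.19), and Cenpa, the H3 form of centromeres, had 352 and 548 counts at 0.94 (0.66 to 1.22). H2ax, named after its values were seen because it carries the stem-loop pattern outside the group, had 413 and 381 counts at 0.18 (-0.11 to 0.47).

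Scaling to total counts moved the median of all genes to -0.31, so positive log2 ratios smaller than that turned negative with it. Factors that make and cut histone mRNA had a median log2 ratio of -0.0054 over 17 genes. Of these, 1 was at least 2-fold lower, against 9.55% of all genes, and 0 were higher, against 7.42%. The lower gene was Zfp473, a zinc finger protein of the U7 machinery, with 70 and 8 counts at -2.76 (-4.78 to -1.35). Slbp itself, named after its values were seen, had 2079 and 1888 counts at 0.16 (0.03 to 0.29). Ncbp1, the large subunit of the cap-binding complex, had 3527 and 4370 counts at 0.61 (0.52 to 0.70). Coil, a scaffold of Cajal bodies, was at 0.36 (0.01 to 0.73) and Sympk, a scaffold of the cleavage complex, at 0.28 (0.18 to 0.37), a value that scaling to total counts turned to -0.03. The 14 histone chaperones had a median of 0.01, and scaling to total counts put it at -0.29. Asf1b, the proliferation-linked H3-H4 chaperone, had 127 and 327 counts at 1.66 (1.24 to 2.11). Rbbp7 was at 0.73 (0.64 to 0.81), and the subunits of chromatin assembly factor 1 stood at -0.71 (-1.32 to -0.13) for Chaf1a and at 0.57 (-0.53 to 1.71) for Chaf1b.

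The genes of S phase and DNA replication had a median log2 ratio of -0.29 over 23 genes, of which 16 were below 0, 8 had an interval wholly below 0 and 3 wholly above 0. Among all genes, 50.1% were below 0, 30.5% had an interval wholly below 0 and 31.5% wholly above 0. The subunits of the Mcm helicase, which unwinds DNA at the fork, were uneven. Mcm5 had 363 and 93 counts at -1.66 (-2.16 to -1.19). It was the only one of the 23 at least 2-fold lower, against 9.55% of all genes. Mcm2 stood at -0.96 (-1.50 to -0.44) and Mcm7 at -0.87 (-1.09 to -0.65). The other subunits, named after their values were seen, stood at -0.43 (-0.75 to -0.12) for Mcm4, at -0.18 (-0.48 to 0.12) for Mcm3 and at 0.02 (-0.21 to 0.26) for Mcm6, and the intervals of Mcm3 and Mcm6 spanned 0. Cdt1, which loads the helicase, was on the other side with 59 and 87 counts at 0.85 (0.15 to 1.59). The 12 genes of G2 and mitosis had a median of 0.15, which scaling to total counts turned to -0.16, and none of their 12 intervals lay off 0. Bub1 was at 1.04 (-0.14 to 2.35), Plk1 at 0.84 (-0.12 to 1.87), Birc5 at -0.80 (-1.94 to 0.22) and Aurkb at -0.49 (-1.52 to 0.48), from 20 to 52 counts in either library.

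**Figure D4:**
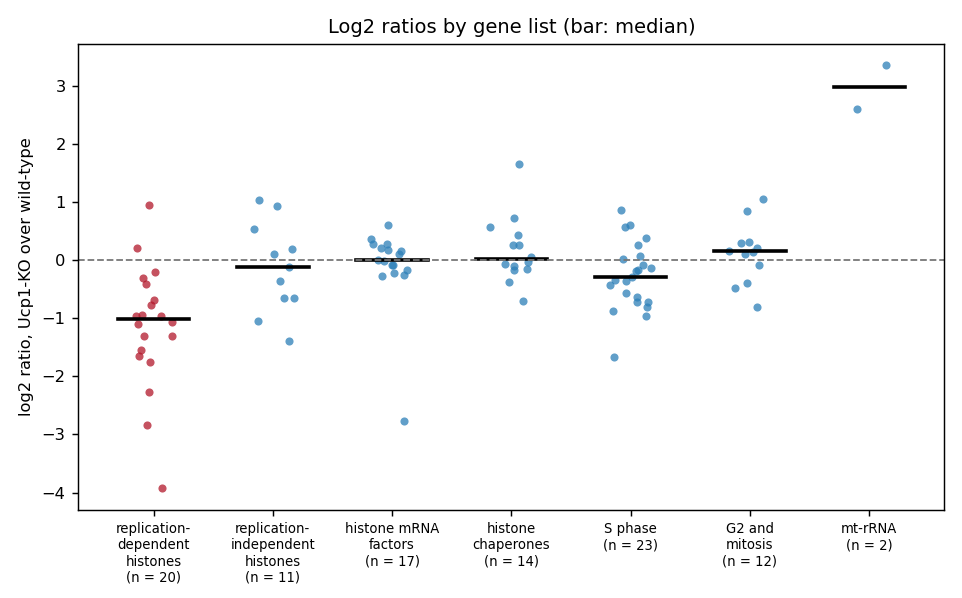
Log2 ratios of Ucp1-KO over wild-type for each gene examined in 7 gene lists, with the median of each list as a bar and the median of all genes as a dashed line. The median was -1.02 for replication-dependent histones, -0.12 for replication-independent histones and -0.29 for S phase genes, and both mitochondrial ribosomal RNAs lie above 2.

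Other RNAs with no tail or a short one also differed between the libraries, most of them in the direction opposite to the histone genes. The mitochondrial ribosomal RNAs, which carry only short tails, had 167053 and 1386284 counts for mt-Rnr1 and 366556 and 1809408 for mt-Rnr2, log2 ratios of 3.35 (3.34 to 3.36) and 2.60 (2.60 to 2.61). Small nucleolar and other tail-less small RNAs numbered 144 in the tables, of which 64 were examined. Of the 64, 29 were higher by 2-fold or more in Ucp1-KO, against 7.42% of all genes, and 3 lower, against 9.55%. All 144 summed to 2521 and 3201 counts, which gave a log2 ratio of 0.64 (0.54 to 0.75). The most unequal were Snora23 with 1 and 21 counts, Snord88c with 1 and 19, Snord47 with 3 and 33 and Snord69 with 7 and 39. These 4 reached the mean of 10 only through the Ucp1-KO library and so had to be higher there. How many of the other small RNAs did so was not counted. The median log2 ratio of the small RNAs examined was 0.84, and it was 0.34 with a minimum mean of 50. Malat1 and Neat1, nuclear RNAs whose long forms end in a triple helix in place of a tail, stood at -0.18 (-0.21 to -0.16) and 0.91 (0.89 to 0.94). Their part in the histone difference was not tested, and many of the small RNAs lie inside introns of other genes, whose reads a gene count can hold.

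Markers of several other cell types were lower in Ucp1-KO tissue along with the histone genes. For the skeletal muscle markers, 12 of 12 below 0 against 50.1% of all genes, the median log2 ratio was -2.68. All 6 endothelial markers were below 0 with a median of -0.87, from 102693 and 50723 counts in sum. All 4 erythroid markers in the tables were below 0 with a median of -0.54, from 48871 and 28211 counts, and 5 of 6 preadipocyte and fibroblast markers were below 0 with a median of -0.21, from 26524 and 17798 counts. The brown adipocyte markers were mostly on the other side, with a median of 0.53 over 12 genes. Of these, 8 had an interval wholly above 0 and 3 had one wholly below. The 3 were Ucp1, Adrb3 at -1.08 (-1.17 to -0.99) and Cox8b at -0.30 (-0.34 to -0.27). The sum of all 12, 960809 and 660032 counts, included Ucp1 itself. The macrophage markers had a median of 0.13 and summed to 6428 and 6835 counts. The T cell, B cell and neutrophil markers summed to at most 170 counts per list in either library, and of these lists only Ly6g was at 0 in both libraries. The part of these cell types in the histone difference was not tested.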

How the data were processed

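RNA was measured in 2 libraries, 1 per genotype. The deposited values are whole-number counts per gene that the authors made with featureCounts. The submitters' processing notes name Trim Galore, HISAT2 and mm39, and annotation, strand setting and treatment of multiply matching reads are not given in the sources used here. Counts at 1 to 10 were even in 70.7% (wild-type) and 73.4% (Ucp1-KO) of genes, so intervals used read pairs, counts divided by 2. Intervals were exact (Poisson for a count, binomial for a share, conditional binomial, Clopper-Pearson, for a ratio) at 95%, and the limit for 0 was 3 read pairs. Intervals and limits cover counting error only, because there was 1 library per genotype. No molecular identifiers were used, so the intervals may be too narrow.

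Size factors were 1.11 and 0.901 (DESeq2 1.42.0, R 4.3.3). No DESeq2 test was run, as there were no replicates. Genes without a symbol (1319, with 0.156% and 0.121% of counts) were kept. Alternatives were TMM factors (edgeR 4.0.16), total counts with and without mitochondrially encoded genes, other filters, a pseudocount of 5, a log2 size of 1.5 and extension beyond 300 bases. The scripts were tested on simulated data.

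Histone genes were matched by identifier and symbol to GENCODE release 39 on GRCm39. The stem-loop was searched by the histone stem-loop consensus, and shared sequence by exact 100-base windows. Named genes were Ucp1, histone genes with a mean of at least 100, the 5 highest and 5 lowest log2 ratios among those from 10 to under 100, up to 4 largest per list, and genes named as chosen after their values were seen. Genes of the head-to-head pairs, H1f1 and H1f5 were also chosen after their values were seen. The members and the lists were chosen with earlier results of these data known.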

Additional observations from a re-analysis of the deposited data

How the results depend on the processing

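No paired analysis was possible because there was only 1 library of each genotype, and for the same reason no library could be left out. Scaling to total counts moved the median log2 ratio of all genes to -0.31. A change of scaling shifts every gene by nearly the same amount, so it does not bear on the rank of the histone genes among all genes. With total counts 14 histone genes, in place of 10, were at least 2-fold lower, and the medians became -1.32 for the histone genes, -1.50 for extended and -0.51 for near-stem-loop genes, -0.43 for replication-independent histones, -0.31 for histone mRNA factors, -0.29 for chaperones, -0.60 for S phase, -0.16 for G2 and mitosis, 2.67 for mitochondrial ribosomal RNA, 0.058 for Malat1 and Neat1 and 0.52 for small RNAs. The summed histone log2 ratio was then -1.14 and that of Ucp1 -3.28, and Sympk reversed to -0.031. The mitochondrial ribosomal RNA median was 2.97 with TMM factors and 2.96 with total counts without mitochondrially encoded genes. Without a filter on low counts, 24 histone genes were at least 2-fold lower and 5 higher, and the medians were -1.31 (extended) and -0.63 (near the stem-loop). With a minimum mean of 50, 6 were at least 2-fold lower, and the medians were -1.30 (histone genes), -1.31 (extended), 0.048 (histone mRNA factors), -0.035 (chaperones) and 0.34 (small RNAs). With a log2 size of 1.5, 6 were lower. Shares of all genes were not computed without a filter, with a minimum mean of 50 or with this log2 size. Without a filter, even H2bc1 with 1 and 0 counts was among the genes at least 2-fold lower. With a pseudocount of 5 the medians were -0.90 (histone genes), -1.06 (extended) and 0.73 (small RNAs). Extension beyond 300 bases put the extended median at -1.30, and keeping only mostly unique coding sequence, chosen after seeing the data, put the histone median at -1.09. For named genes, family medians and family sums, 193 values under the alternatives moved by no more than counting error, 31 moved further and 1, Sympk, reversed. Most of the 31 came from total counts, such as -1.08 for H1f2 and 0.61 for Neat1, and the H3 median was -2.44 without a filter. Values near 0 changed sign within counting error, H4c3 to -0.092 with total counts and the chaperone median to -0.00044 without mitochondrially encoded genes in the totals. The shift with total counts followed from the scaling itself, and fewer genes were tested under the stricter filter. The cause of the other shifts was not tested. Low counts limit single genes, and an interval wider than 2-fold occurred even at 213 and 89 counts (Mcm2).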
